A study of Mus musculus with 4 samples.

Results

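The zinc finger genes studied here were the mouse genes whose symbol is Zfp followed by a number and at most 1 letter, other than *Zfp534*, *Zfp600* and the symbols from *Zfp978* to *Zfp993*, which form most of a large cluster on distal chromosome 4. Each gene was represented by its protein-coding transcript with the highest mean in the authors' transcript table, and a gene was kept if this mean came to at least 200 normalised estimated counts. The members were thus selected on the measured mean over all libraries, and their levels are a description. Of 14786 protein-coding genes in the table, 348 carried such a symbol and 272 of these passed the limit, while 76 had lower means. One member, *Zfp933* (chr4:147822986-147848366), lies 13198 bases from a left-out gene of that cluster and was kept by its symbol, with a level of 286 counts per kb and a library SD, defined below, of 0.30 log2 units. Just inside the limit were *Zfp182* (209), *Zfp689* (211), *Zfp580* (217) and *Zfp128* (229), and just outside it were *Zfp607b* (199), *Zfp873* (197), *Zfp784* (193) and *Zfp964* (191).

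The libraries were made from polyadenylated RNA of NIH/3T3 cells, an immortalised line of mouse fibroblasts. In the 2 knockdown (KD) libraries the cells had received a pair of siRNAs against *Setd2*, the methyltransferase that places H3K36me3 along transcribed genes, and in the 2 control libraries, called wild type (WT) in the study, a Scrambled siRNA. In both groups the siRNA was used at 10 nM and RNA was taken 48 h after transfection. The labels number the replicates but do not say whether they came from separate cultures. The knockdown is transient, and the share of cells that took up the siRNAs was not measured here.

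The values used were the authors' mean and variance of each transcript over the 4 libraries, KD and WT together, and their technical variance. The technical variance is called the read assignment variance here. It can hold random counting noise as well as doubt over which transcript a read fits, and these parts were not separated. Single libraries were not analysed here, the depth of each library is therefore unknown, and no gene was tested for a difference between KD and WT. The level of a gene is its mean in normalised estimated counts, divided by the length of the transcript in kb wherever genes are compared. The library SD is the square root of the variance over the 4 libraries and the assignment SD that of the read assignment variance, both in log2 units. In the library SD, a difference between KD and WT and a spread within the groups cannot be told apart, and it carries no direction.

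Classical zinc fingers of the C2H2 kind fold around a zinc ion held by a pair of cysteines and a pair of histidines, and each finger reads a few bases of DNA with a short helix. Most mammalian genes of this kind carry arrays of fingers, and many join them to a KRAB box, a domain that recruits the corepressor TRIM28 (KAP1) and, with it, SETDB1, which methylates H3K9, and HP1 proteins. KRAB zinc finger genes lie in clusters of close copies, bind mostly transposable elements, and in several clusters are themselves covered by H3K9me3. Zinc finger genes without a KRAB box are older and diverse, and include activators, RNA-binding proteins and factors of ribosome quality control.

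The letters below come from 3 pairs of genes on chromosome 17 that share stretches of sequence, some far more than others. They are shown because shared sequence bears on which gene a read is counted for. Each line gives 30 bases of coding sequence that end with the codon of the first zinc-binding histidine of a finger, from transcripts of GENCODE M21 (GRCm38), written along the mRNA. Capitals mark the codons of the 4 helix positions that face the bases in classical fingers. Fingers were paired by their order in the protein. In each pair 2 fingers tied for the most differing contact residues, and the first of these is shown, so these lines were picked for their differences and are not typical.
Zfp960 finger 9 of 13: tttgcaTGTcacAGATACcttcaaATCcat
Zfp97 finger 9 of 13: tttgctTGTtacCAATCTtttcaaATCcat
Zfp942 finger 6 of 11: tttaccCGGaaaAGCCATcttagaATTcat
Zfp944 finger 6 of 11: ttcactCACaaaGGTGATcttagaAGTcat
Zfp955a finger 6 of 10: tttacaCGTtccTTATCCcttcaaAAGcat
Zfp955b finger 6 of 10: tttacaTGTtccTCATACcttcaaAAGcat

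*Zfp960* (chr17:17064113-17089628, plus strand) and *Zfp97* (chr17:17121415-17146831, plus strand) encode proteins of 546 residues each that are identical at 96.3% of positions. Of the 20 differing residues, 5 were at contact positions, and in 10 of their 13 fingers all 4 contact residues were the same. *Zfp942* (chr17:21926960-21962451, minus strand) and *Zfp944* (chr17:22337989-22361400, minus strand) have 11 fingers each, of which 1 had the same contact residues in both. This pair was less alike than the others, and 30 of its 44 contact residues differed. By the words described further on, *Zfp944* held 14.3% of the sequence of *Zfp942*, and 80.8% was found in no other gene. *Zfp955a* (chr17:33239718-33255145, minus strand) and *Zfp955b* (chr17:33289544-33307241, plus strand) were identical at 95.4% of 545 residues, with 9 of 25 differences at contact positions, and shared the contacts of 6 of 10 fingers. Of these genes *Zfp97*, with a level of 65.6 before division by length, was below the limit and is not a member. *Zfp942* and *Zfp944* had library SDs of 0.84 and 0.64 log2 units, *Zfp960* 0.75, and *Zfp955a* and *Zfp955b* 0.19 and 0.18.

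As a check of the samples, *Setd2* itself had a level of 1844 and a library SD of 1.15 log2 units. No zinc finger member and 18 other genes at or above the limit reached that spread. The direction of the *Setd2* difference was not examined here. All 10 fibroblast markers were present, with levels per kb from 408 for *Fbn1* to 458932 for *S100a4*. Of 12 markers of epithelial, endothelial, blood, muscle and neural cells, 4 (*Epcam*, *Krt18*, *Myod1* and *Sox10*) had no protein-coding row in the table, 7 were below 200 counts, and *Cd68*, a macrophage gene that fibroblasts can also express, had a level of 298.

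Zinc finger members were expressed at modest levels. Their median was 207 counts per kb, against 616 per kb for the 9919 other protein-coding genes at or above the limit, and 37 of the 272 members reached 2000 counts before division by length. The highest level per kb was that of *Zfp207* (BuGZ, a partner of the spindle checkpoint protein BUB3) with 3804, followed by *Zfp330* with 2262 and *Zfp91*, a ubiquitin ligase, with 1933. *Zfp932* came next with 1752, but for a transcript of 451 bases that encodes 65 residues with a KRAB box and no finger. *Zfp146* (1640), *Zfp664* (1510), *Zfp326*, a subunit of the DBIRD complex that links transcription and splicing (1469), and the RNA-binding protein gene *Zfp106* (1367) completed the 8 highest.

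Members with a well-described role were taken from a list made by hand, which holds none of the 81 members under 500 counts, so their levels and spread describe that list and no more. Of 43 genes listed, 38 were members and 37 had a length, and 30 of the 37 lay above the median of the members per kb. The other 5, *Zfp42*, *Zfp423*, *Zfp467*, *Zfp708* and *Zfp750*, were not members. The median library SD of the 38 was 0.16 log2 units, and 28 of them lay below the median of the members. A library SD over 0.5 was found for 2 of the 38, *Zfp36* and *Zfp57*, and for 5.19% of all 10191 protein-coding genes at or above the limit.

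**Figure D1:**
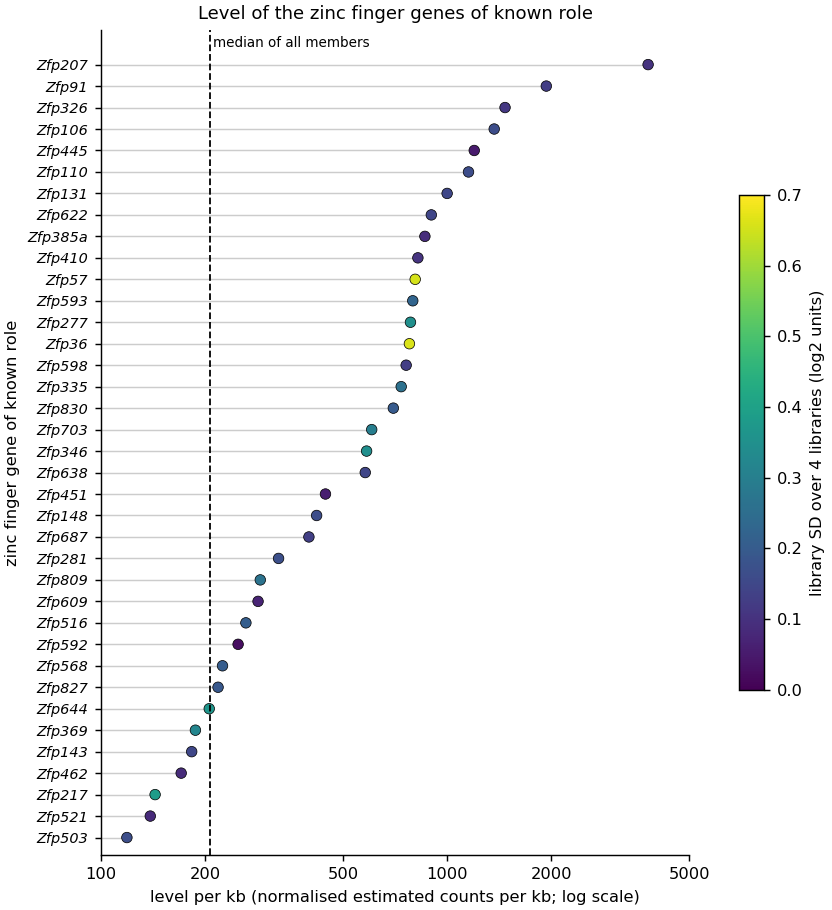
Level per kb (x axis, log scale, normalised estimated counts per kb) of the 37 zinc finger members of known role that have a transcript length, with each point coloured by its library SD in log2 units. The points run from 119 for Zfp503 to 3804 for Zfp207, the dashed line is the median of the members, and Zfp57 and Zfp36 are the only yellow points.

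Among the KRAB zinc finger genes of known role, *Zfp445* and *Zfp57* both protect imprinted methylation after fertilisation, and they differed in spread. *Zfp445* had a level of 1197 per kb and a library SD of 0.051 log2 units. *Zfp57* had a level of 808 per kb and a library SD of 0.66, and the 4 protein-coding transcripts of *Zfp57* in the table had library SDs between 0.54 and 0.66. *Zfp568*, a repressor of a placental *Igf2* promoter, had 224 per kb and a library SD of 0.20. *Zfp809*, which silences retroviruses, had 288 per kb and a library SD of 0.27, for a transcript of 60 coding residues with a KRAB box and no finger that held 53.9% of the gene's summed level. *Zfp110* and *Zfp369*, which encode partners of the neurotrophin receptor p75, had 1152 and 187 per kb.

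Among the regulators of transcription and chromatin, *Zfp410*, an activator of *Chd4*, had 823 counts per kb and a library SD of 0.10 log2 units. *Zfp592* and *Zfp687*, which act together in a complex with ZMYND8, had 249 and 399 per kb, with library SDs of 0.027 and 0.13. *Zfp281* and *Zfp148*, which bind GC-rich promoters, had 326 and 420 per kb, and *Zfp143*, an activator of snRNA and mRNA promoters, had 183 per kb and a library SD of 0.15, about the size of its assignment SD of 0.14. *Zfp644*, a partner of the H3K9 methyltransferases G9a and GLP, had 205 per kb and a library SD of 0.36. *Zfp277*, described with the Polycomb protein BMI1, had 783 per kb and a library SD of 0.35. *Zfp638*, which acts with the HUSH complex on unintegrated retroviral DNA, had 580 per kb and a library SD of 0.15. *Zfp703* and *Zfp503*, a related pair of corepressors, had 605 and 119 per kb.

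Among the genes with roles in RNA and translation, *Zfp36* (tristetraprolin), whose CCCH fingers bind AU-rich mRNA and speed its decay, had 778 counts per kb and a library SD of 0.66 log2 units. Its second protein-coding transcript, with 40.4% of the summed level, had a library SD of 0.44. *Zfp598*, the ubiquitin ligase that marks collided ribosomes, had 761 per kb and a library SD of 0.13, and its second transcript, almost equal in level, had 0.40. *Zfp622* and *Zfp593*, factors of the large ribosomal subunit, had 900 and 795 per kb with library SDs of 0.15 and 0.23. *Zfp830*, a spliceosome component, had 699 per kb, and *Zfp346*, which binds double-stranded RNA, 585 per kb with a library SD of 0.34. The second transcript of *Zfp346*, with 15.5% of the summed level, had a library SD of 0.075.

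Over all 272 members the library SD ran from 0.013 to 0.84 log2 units with a median of 0.23, against a median of 0.18 for the 9919 other genes. Across members the library SD was smaller at higher levels (Spearman's rho -0.33 over 272 genes that share libraries), so genes were set side by side within classes of level. Between 200 and 500 counts the medians were 0.31 for 81 members and 0.24 for 1147 other genes. Between 500 and 1000 counts they were 0.24 and 0.19, and between 1000 and 2000 counts 0.21 and 0.17. At 2000 counts and over the order was the other way, with 0.15 for 37 members and 0.17 for 4821 other genes. The assignment SD gave no such gap, with medians of 0.093 for members and 0.093 for other genes in the lowest class and 0.031 and 0.025 in the highest.

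**Figure D2:**
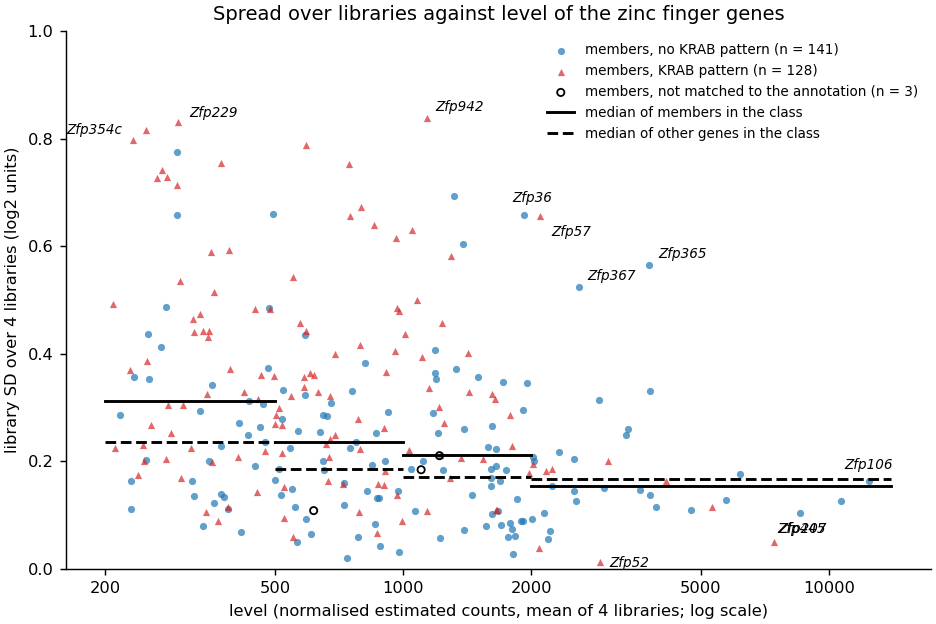
Library SD over the 4 libraries (y axis, log2 units) against level (x axis, log scale, normalised estimated counts) for the 272 zinc finger members, with red triangles for members whose protein holds the KRAB pattern and blue circles for those without it. Solid lines (members) and dashed lines (other genes) are medians within a class of level, and the solid line lies above the dashed one in every class below 2000 counts.

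A library SD over 0.5 log2 units was found for 31 of 272 members, or 11.4%, the 0.5 having been set with the values in view. Members that share part of their sequence with other genes (under 80% own words, as described further on) made up 14 of the 31. That is 14 of 56 such members or 25%, against 17 of 213 other matched members or 7.98%. The 56 were also less expressed, with a median of 595 counts before division by length against 870. Among the 56, 4 of 20 with under 50% own words and 10 of 36 with 50 to 80% were over 0.5. Over all 10191 protein-coding genes at or above 200 counts the share over 0.5 was 5.19%. The largest was that of *Zfp942*, at 0.84 log2 units and a level of 348 per kb, followed by *Zfp229* (0.83), *Zfp354c* (0.82), *Zfp995* (0.80), *Zfp820* (0.79), *Zfp874a* (0.77), *Zfp934* (0.75) and *Zfp960* (0.75). Of these 8 genes, 5 lie on chromosome 17 and 2 on chromosome 13, and all but *Zfp942*, *Zfp820* and *Zfp960* had fewer than 500 counts. *Zfp229* differs from the rest, since its assignment SD of 0.80 was nearly as large as its library SD. After subtraction of the read assignment variance its library SD was 0.24. Among the 31 members, the assignment variance exceeded 10% of the library variance in 2 more, *Zfp758* and *Zfp433*.

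The smallest library SDs were those of *Zfp52* (0.013 log2 units), *Zfp213* (0.021), *Zfp592* (0.027), *Zfp212* (0.030) and *Zfp26* (0.038). In 19 members, the first 4 of these among them, the library SD was below the assignment SD, which can also hold counting noise. *Zfp592* was one of them, with 1 protein-coding transcript listed and no 31-base word shared with another gene. *Zfp52* lies in the same cluster as *Zfp942*, *Zfp229*, *Zfp995* and *Zfp820*. The second protein-coding transcript of *Zfp52*, with 17.9% of the summed level, had a library SD of 0.25 and an assignment SD of 2.26.

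The KRAB pattern, a run of residues typical of the A box, was found in the proteins of 128 members and was absent from 141, while *Zfp608*, *Zfp407* and *Zfp532* could not be matched to the annotation by transcript version. A looser pattern matched 141 members instead of 128. A member without the stricter pattern, which is the one used here, may therefore still encode a KRAB box. The median library SD was 0.31 log2 units with the pattern and 0.19 without it. Of the 31 members over 0.5, 23 held the pattern. The members with the pattern were also less expressed, with a median level of 184 counts per kb against 262. Within classes of level the medians with and without the pattern were 0.37 and 0.26 between 200 and 500 counts, 0.30 and 0.19 between 500 and 1000, 0.30 and 0.18 between 1000 and 2000, and 0.17 and 0.15 at 2000 and over.

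The number of fingers had a median of 10 and reached 36 in *Zfp142* and 33 in *Zfp462*. The 48 members with 1 to 5 fingers had the highest median level, at 467 counts per kb, and a median library SD of 0.16 log2 units. The 152 members with 6 to 14 fingers had 211 per kb and 0.25, and the 52 members with 15 or more had 147 per kb and 0.23. In 17 members no finger was found in the transcript used. Among these, *Zfp36* and *Zfp330* held matches to the CCCH pattern instead, and 10 held the KRAB pattern without a finger, such as *Zfp101* with 65 residues and *Zfp931* with 64.

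Members were spread over 20 chromosomes and very unevenly. Chromosome 7 held 68, chromosome 17 held 38, and chromosomes 8 and 13 held 19 each. On chromosome 17 the median library SD was 0.37 log2 units, against 0.18 for the 443 other genes of that chromosome, and 13 of its 38 members were over 0.5, against 3.84% of the other genes. On chromosome 13 it was 0.33 against 0.18, with 5 of 19 members over 0.5, against 7.29% of the other genes. On chromosome 7, with the most members, it was 0.22 against 0.19, with 5 of 68 over 0.5, against 4.66% of the other genes. Gaps of similar size were found on chromosomes with fewer members, with 0.31 against 0.18 on chromosome 2, 0.36 against 0.19 on chromosome 10, 0.30 against 0.18 on chromosome 11, 0.30 against 0.15 on chromosome 12 and 0.34 against 0.18 on chromosome X. On chromosome 15 it was 0.13 for 9 members against 0.19.

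**Figure D3:**
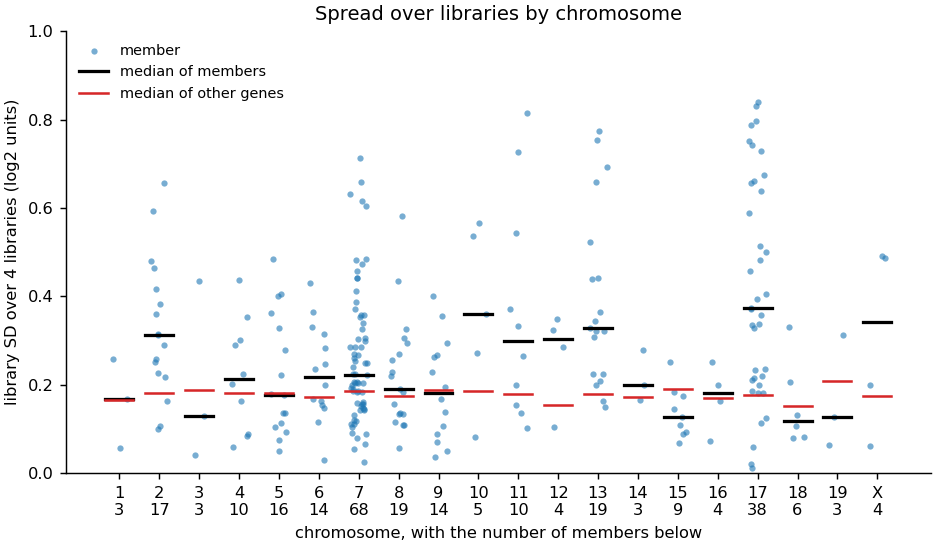
Library SD over the 4 libraries (y axis, log2 units) of each matched zinc finger member (blue points, spread sideways at random) by chromosome (x axis, with the number of members). Black lines are medians of the members and red lines medians of the other protein-coding genes of the chromosome, and the black line lies well above the red one on chromosomes 2, 10, 11, 12, 13, 17 and X, and near or below it on the others.

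A neighbouring Zfp gene lay within 100 kb of 146 members. Chains of such neighbours with at least 5 members formed 10 clusters that held 75 members in all. The cluster at chr17:21383748-22225616 held 12 members, all with the KRAB pattern, with a median library SD of 0.48 log2 units. In it *Zfp942*, *Zfp229*, *Zfp995*, *Zfp820* and *Zfp994* (0.67) were over 0.5, *Zfp760* (0.50), *Zfp51* (0.46), *Zfp943* (0.41) and *Zfp53* (0.34) came between, and *Zfp54* (0.22), *Zfp948* (0.20) and *Zfp52* (0.013) were lowest. The lowest of these was also the second highest in level, at 917 counts per kb, after *Zfp948* at 1141, so spread and level both differed widely within a single cluster. A second cluster on the same chromosome, at chr17:32765496-33110705, held 6 members, also all with the KRAB pattern, and its median library SD was 0.20 with none over 0.5.

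Among the other clusters, medians ran from 0.17 to 0.36 log2 units. The cluster at chr7:29768552-30169750, with *Zfp568* and *Zfp146* among its 13 members, had a median library SD of 0.20, and *Zfp940* (0.71) and *Zfp260* (0.60) were over 0.5. The cluster at chr13:67038596-67827002 had 23 Zfp genes in the table, of which 9 were members, with a median of 0.31 and *Zfp874a* alone over 0.5. Its neighbour *Zfp874b*, which held 21.1% of the words of *Zfp874a*, had a library SD of 0.31. The GC-rich cluster at chr7:4915217-5053723 with *Zfp580*, *Zfp628* and 3 others had no KRAB pattern and a median of 0.19.

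The base composition of the transcripts moved with the spread. The 62 members with a GC content under 40% had a median library SD of 0.41 log2 units, against 0.21 for the 447 other genes in that class. Between 40 and 45% the medians were 0.27 for 76 members and 0.16 for other genes, between 45 and 50% 0.18 and 0.16, between 50 and 55% 0.20 and 0.18, and at 55% and over 0.19 and 0.21. Across the 269 matched members Spearman's rho between GC content and library SD was -0.39, and across 9637 other genes it was 0.08, where genes share libraries and are not independent replicates. Of the 31 members over 0.5, 27 had a GC content under 45% and 19 under 40%.

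**Figure D4:**
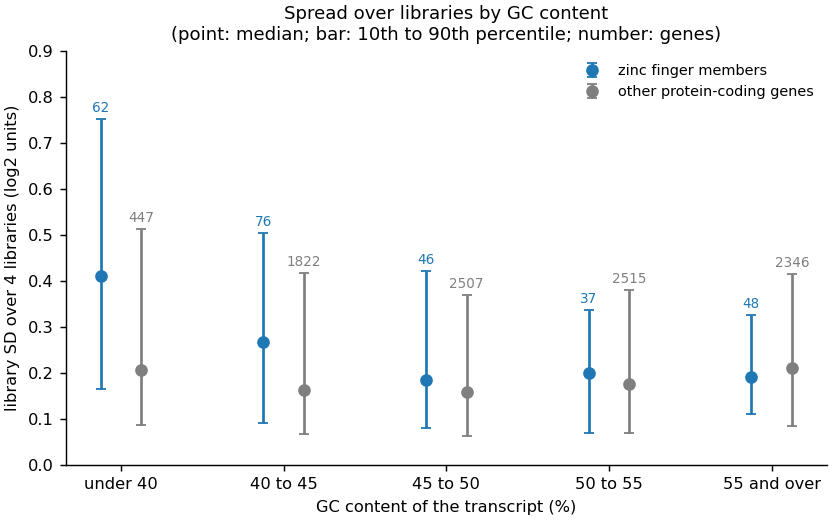
Library SD over the 4 libraries (y axis, log2 units) by GC content of the transcript (x axis, %) for zinc finger members (blue) and other protein-coding genes (grey), with the median as a point, the 10th to 90th percentile of genes as a bar, and the number of genes above it. The blue median is 0.41 under 40% GC and 0.19 at 55% and over, while the grey medians stay between 0.16 and 0.21.

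GC content and the KRAB pattern were themselves tied, since 45 of the 62 members under 40% GC held the pattern. Under 40% GC the median library SD was 0.46 log2 units with the pattern and 0.25 for the 17 members without it. Between 40 and 45% it was 0.28 for 49 members and 0.17 for 27, and at 45% and over 0.22 for 34 and 0.18 for 97. At GC contents under 45%, genes were again set side by side within classes of level. Between 200 and 500 counts the median library SD was 0.44 for 44 members and 0.30 for 239 other genes. Between 500 and 1000 counts it was 0.31 for 39 members and 0.22 for 340 other genes. Between 1000 and 2000 counts it was 0.30 for members and 0.17 for 525 other genes. The 16 members at 2000 counts and over had 0.14 against 0.15. GC content was not matched under 45%. Over all levels, 62 members were under 40% and 76 between 40 and 45%, against 447 and 1822 of the other genes. The part of base composition, level and read assignment in the spread was not tested.

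Because close copies share sequence, each transcript was cut into words of 31 bases, and words found in no other annotated gene on either strand were counted as its own. In 56 members under 80% of the words were their own, in 20 members under 50%, and in 46 members all were. The gene that shared most words with the 56 was protein-coding in 41 cases. *Zfp433* had 3.3% of words of its own and *Zfp960* 8.8%, with 89.2% found in *Zfp97*, and *Zfp955a* shared 66.6% with *Zfp955b*. Words were matched on either strand. The libraries were stranded, but whether the strand was used in counting reads was not checked. Where shared words run in the same direction, it is uncertain which gene the reads came from. Where they run in opposite directions, that depends on this setting. The median assignment SD was nevertheless 0.067 log2 units in members with under 50% of their own words and 0.061 in those with 80% or more. Across members, Spearman's rho of the assignment SD was 0.03 with the share of own words (269 genes) and -0.79 with level (272 genes). The median library SD was 0.34, 0.32 and 0.22 in members with under 50%, with 50 to 80%, and with 80% or more, while their median GC content was 40.4, 41.3 and 45.8%. In the same order, their median level before division by length was 579, 628 and 870 counts.

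The largest assignment SDs belonged to *Zfp229* (0.80 log2 units), *Zfp518b* (0.34), *Zfp217* (0.27) and *Zfp758* (0.25). *Zfp518b* and *Zfp217*, a cofactor of CtBP, had only words of their own but 2 protein-coding transcripts each, the second with 36.3 and 40.4% of the summed level. Several protein-coding transcripts were listed for 162 members and 1 for 110. In 9 members the transcript used held under 50% of the summed level, with *Zfp950* lowest at 36.9%. The choice of transcript mattered for *Zfp932*, whose short transcript had a library SD of 0.22 while 2 longer ones, with 32.6 and 27.7% of the summed level, had 0.69 and 0.78. For *Zfp354a* it acted the other way, with 0.73 for the transcript used and 0.29 for the next, which held 42.2%.

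The partners through which KRAB boxes act were all expressed. The 15 genes listed had levels from 457 counts per kb for *Atf7ip* to 4988 for *Cbx3*, one of the HP1 genes, with *Trim28* at 3680 and *Setdb1* at 1970, so that each lay above the median zinc finger member. Their library SDs had a median of 0.17 log2 units, with 0.21 for *Trim28* and 0.13 for *Setdb1*. *Morc3* stood apart with a library SD of 1.25 and an assignment SD of 0.60, for a transcript that held 67.8% of the gene's summed level, and the other 14 lay between 0.033 and 0.36.

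Set beside the genes most like them, the members took a middle place. The 10 genes of the chromosome 4 cluster that reached 200 counts had a median library SD of 0.90 log2 units, 8 of them over 0.5, all with a GC content under 40%, at a median level of 164 per kb. Another 38 genes with other names, outside that cluster, encoded fingers with the KRAB pattern, and they had a median library SD of 0.48 with 16 over 0.5, a median level of 190 per kb and a median GC content of 39.3%. The 128 members with the pattern had 0.31, with a median GC content of 41.6%. The 122 genes of other names with 3 or more fingers and no KRAB pattern had 0.17, near the 0.19 of the 141 members without it. After subtraction of the read assignment variance, the median for the chromosome 4 cluster was 0.68. It was then 0.47 for the 38 genes and 0.30 for the 128 members with the pattern. It was 0.13 for the 122 genes and 0.18 for the 141 members without it. These differences between sets of genes were not tested.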

How the data were processed

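RNA-seq of NIH/3T3 cells, 2 KD and 2 WT libraries by the *Setd2* label, was described from values pooled over all 4 libraries. Per the labels, base calls were converted with bcl2fastq 2.17, HISAT2 and sleuth are named as tools, and the build is GRCm38; the paper's methods give BBDuk, Kallisto and Sleuth for the transcript values. The authors deposited, for each transcript, the mean over the 4 libraries on the natural log scale (estimated counts, normalised, with 0.5 added), its variance, and the technical variance called read assignment variance above. Levels were computed as the exponential of the deposited mean minus 0.5. Further deposited columns, and the gene table, hold the authors' own comparison of KD with WT (effects, errors, statistics, p-values and q-values) and were not used, so the planned test between groups was not run and no single-library value, depth or counting interval is given. That a size factor scaled the counts of each library is Sleuth's default and was not checked.

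Transcript lengths, positions and coding sequences came from GENCODE M21 (GRCm38) by transcript version, which matched 269 of 272 members. Fingers were counted in the translated coding sequence as C, 2 to 4 residues, C, 12 residues, H, 3 to 5 residues, H, without overlap. The finger pattern and the count of own words were tested on simulated sequences, and the KRAB and CCCH patterns were not. Named genes were the 8 highest per kb, the 4 on either side of the limit, the 8 largest and 5 smallest library SDs, the 4 largest assignment SDs, and the listed roles, partners and markers; other genes named were chosen after their values were seen. The members and lists were chosen with earlier results of these data known. Python 3 with pandas, numpy and scipy was used.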

Additional observations from a re-analysis of the deposited data

How the results depend on the processing

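Of 19 alternatives to 8 counts and medians, 15 left a count within 1.5 times its value or a median of levels or spreads within 0.23 log2 units, the median library SD. For the median library SD itself this tolerance is as large as the value, so its place among the 15 says little. That median was 0.249 with a limit of 100 counts, 0.217 with a limit of 400, and 0.218 less the read assignment variance. The median level of the members was 784 without division by length, which is another unit, and 259.9 per kb when the protein-coding transcripts of a gene were summed. Members with a library SD over 0.5 log2 units fell from 31 to 17 with a limit of 400 counts, which leaves 212 members, and the share was then 8.02% against 4.37% of all genes above that limit. They also came to 17 when the members with under 80% of their own words were left out, which leaves 213 and a share of 7.98%; own words were not counted for genes outside the family, so no share of all genes stands beside it. Both of these alternatives were added after seeing the data. No paired analysis was possible because the values used are means and variances over all 4 libraries, and for the same reason leaving out each replicate in turn was not run. Depth limits what can be said of the spread, since it is unknown here, and 4 libraries give an imprecise variance for each single gene.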
